A study of Mus musculus with 29 samples.

Results

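Evc and Evc2 and 6 core genes of the hedgehog pathway (Ptch1, Smo, Sufu, Gli1, Gli2 and Gli3) were followed in RNA sequencing of mouse blood stem and progenitor cells. They are 8 of the 30025 genes in the deposited expression table and were found by their gene symbols. Evc and Evc2 were chosen by their measured FPKM values, which were higher in mice carrying the 5A3 deletion, and the hedgehog genes by the pathway in which the EvC proteins act. The levels of Evc and Evc2 are therefore given as a description without a test, and tests were run on the 6 hedgehog genes. The variation of the pair across mice, with the group means removed, also had a permutation test. Bone marrow cells that were c-kit+, lineage-negative, Sca-1+, CD41- and CD48- were sorted by the surface protein CD150 into CD150hi HSC, CD150lo HSC and CD150neg cells. The labels call the last population HSC and the study calls it MPP (multipotent progenitors), and the name CD150neg MPP is used here. Each of 5 wild-type (WT) and 5 heterozygous 5A3+/del mice gave 1 library per population, except that 1 mouse has no 5A3+/del CD150neg MPP library, which makes 29 libraries. The mice were on a C57BL/6J background, onto which the deletion line had been backcrossed over generations. They were aged 12.42 to 13.28 weeks (WT) or 12.42 to 13.85 weeks (5A3+/del). The deletion was made in embryonic stem cells with Cre and loxP, is carried in the germ line and therefore in every tissue, and removes the segment of chromosome 5 from Fbxl13 to Srpk2. The questions asked were whether the hedgehog genes share the order of the populations seen for Evc and Evc2, and whether they share the genotype difference.

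Hedgehog ligands bind the receptor Ptch1, which otherwise holds the membrane protein Smo inactive. Active Smo gathers in the primary cilium, a sensory projection of the cell surface, and there meets the EvC complex of Evc and Evc2 at the base of the cilium. The signal releases the Gli transcription factors from Sufu, their inhibitor, and Gli1 and Ptch1 are themselves target genes of the pathway. Loss of EVC or EVC2 in humans causes Ellis-van Creveld syndrome, a disorder of the skeleton, teeth and heart, and the pair is best known from cartilage and bone.

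Evc and Evc2 are neighbours on chromosome 5 that are transcribed away from each other (mm9, GENCODE annotation). Evc (ENSMUSG00000029122) lies on the minus strand at chr5:37680337-37728133 and Evc2 (ENSMUSG00000050248) on the plus strand at chr5:37729717-37816294, with 1583 bp between the genes. The pair is on the chromosome that carries the deletion but outside it, with 14.5 Mb between the end of Srpk2 and the nearer end of Evc. The bases directly upstream of each annotated transcript start show part of what lies between the divergent starts. They are given 5′ to 3′ on the strand of the gene, from the RefSeq promoter table on build GRCm38.p6. They cover chr5:37336948-37337131 on the minus strand for Evc (184 bases, 60.3% G and C, 8 CpG) and chr5:37338228-37338477 on the plus strand for Evc2 (250 bases, 57.2% G and C, 11 CpG). The stretch for Evc is the shorter because its gene model reaches farther upstream. The bases between these stretches are not shown.
Evc: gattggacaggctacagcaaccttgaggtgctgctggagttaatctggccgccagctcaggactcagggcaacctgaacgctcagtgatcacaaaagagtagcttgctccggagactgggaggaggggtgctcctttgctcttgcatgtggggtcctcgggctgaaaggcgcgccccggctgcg
Evc2: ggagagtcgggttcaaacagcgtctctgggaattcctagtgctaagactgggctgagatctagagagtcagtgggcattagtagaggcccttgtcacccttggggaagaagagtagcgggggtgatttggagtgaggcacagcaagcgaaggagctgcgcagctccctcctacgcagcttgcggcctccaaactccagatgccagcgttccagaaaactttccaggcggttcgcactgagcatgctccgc
The Gli binding motif GACCACCCA was searched on both strands of each promoter, in a window from 250 bases before to 50 bases after the start, and was found in 0.253% of the 32817 mouse promoters of the table. None of the 7 members with an entry in that table (all but Gli1) held it. The bases between the windows of Evc and Evc2 were not searched. The shorter core CCACCC, which is contained in that motif and occurs in 31.5% of the promoters, was in the promoters of Smo, Gli2 and Gli3 and not in those of Evc, Evc2, Ptch1 and Sufu. Capitals were kept for this core, so the sequences of Evc and Evc2 are printed in lower case throughout.

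**Figure D1:**
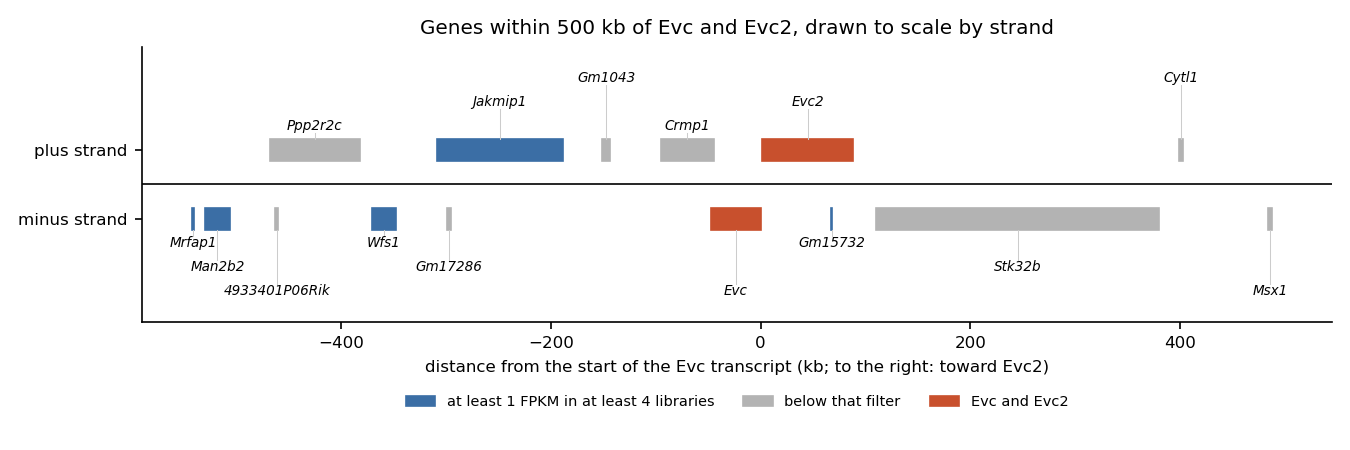
Map of the 13 genes of the expression table within 500 kb of Evc and Evc2, to scale, by strand; the x axis is the distance in kb from the start of the Evc transcript. Evc and Evc2 (red) meet head to head at 0, blue genes reached the expression filter and grey genes did not.

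The libraries held 21229490 to 38797569 fragments (median 26967107), as recovered from the steps in the FPKM values (fragments of a gene scaled to its exon length and to the total of the library). The 10 expressed genes annotated wholly between Fbxl13 and Srpk2 had medians of 54.2%, 54.5% and 45.6% of the WT mean in the 3 populations of 5A3+/del mice, from CD150hi HSC to CD150neg MPP. Slamf1, which encodes CD150, was at 12.5 to 15.4 FPKM in the WT CD150hi HSC libraries, at 0.75 to 2.64 in WT CD150lo HSC and at most 0.296 in WT CD150neg MPP. In 5A3+/del mice it was at 9.97 to 22.6, 0.18 to 2.01 and at most 0.234. The stem cell genes Kit, Ly6a, Procr, Hlf and Mecom were at 13.7 FPKM or more in every library. Flt3 ran the other way to Slamf1, at 1.66 to 3.71 FPKM in WT CD150hi HSC and 41.3 to 62.4 in WT CD150neg MPP. In 5A3+/del mice Flt3 was at 2.30 to 5.11 and 40.95 to 61.25. All 3 libraries of WT mouse 3 had 233.7 to 319 FPKM of Xist, against at most 0.470 in the other 26. Values without this mouse are among those that leave out 1 mouse, and none of the 10 recomputed values that moved under an alternative came from leaving it out. This does not cover the small fold changes that reversed sign.

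Evc was low in every group and highest in CD150hi HSC. Its FPKM in WT CD150hi HSC of mice 1 to 5 was 1.31, 0.307, 1.24, 0.573 and 1.05, and in 5A3+/del CD150hi HSC 2.92, 2.12, 1.81, 1.90 and 1.72. Every 5A3+/del library was above every WT library in this population. In CD150lo HSC the WT values were 1.43, 0.0639, 0.181, 0.192 and 0.053, and the 5A3+/del values 1.05, 0.394, 1.07, 0.555 and 0.533. WT mouse 1 was above all 5A3+/del mice there and the other 4 WT mice were below all of them, so the groups overlapped. In CD150neg MPP the WT values were 0.300, 0, 0, 0.0437 and 0.0295, from 49, 0, 0, 10 and 7 fragments, and the 4 5A3+/del values were 1.00, 1.60, 1.14 and 0.706, from 190, 319, 232 and 171 fragments. Again the groups did not overlap, and the highest WT library was once more that of mouse 1.

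Evc2 had its highest values in CD150hi HSC of both genotypes. In WT CD150hi HSC its FPKM was 2.36, 1.67, 2.79, 2.75 and 1.97, and in 5A3+/del CD150hi HSC 2.44, 2.42, 3.93, 3.27 and 3.04. The groups overlapped, with the 5A3+/del library higher in 21 of the 25 possible pairs. In CD150lo HSC the WT values were 0.0484, 0.084, 0.306, 0.616 and 0.171, and the 5A3+/del values 1.91, 0.881, 1.14, 1.47 and 1.34. All 5A3+/del libraries were above all WT libraries. In CD150neg MPP the WT libraries held 4, 0, 0, 2 and 7 fragments of Evc2 (at most 0.0388 FPKM) and the 5A3+/del libraries 23, 109, 148 and 76 (0.160, 0.72, 0.954 and 0.413 FPKM). The WT values of this population are at or close to the floor of 3 fragments per library that was set as the limit of detection, and the groups did not overlap.

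**Figure D2:**
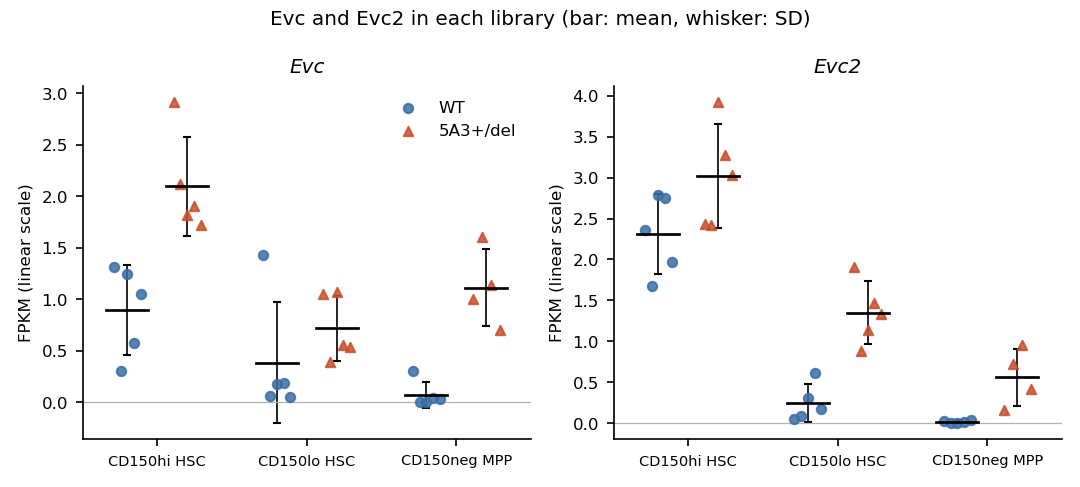
FPKM of Evc and Evc2 (y axes, linear) in each of the 29 libraries by population, with WT as blue circles, 5A3+/del as red triangles, bars for the mean and whiskers for the SD, which reach below 0 where 1 library dominates a group. Evc2 steps down from left to right in both genotypes, whereas Evc of 5A3+/del mice has a higher mean in CD150neg MPP (1.11) than in CD150lo HSC (0.720).

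For Evc2 the population with the largest genotype difference depended on the scale. For Evc it was CD150neg MPP both as a ratio and on the log2 scale. In CD150hi HSC, WT mice averaged 0.897 ± 0.438 FPKM of Evc and 5A3+/del mice 2.09 ± 0.483 (SD, n = 5 each), a ratio of 2.33. In CD150lo HSC the ratio was 1.88 (0.383 ± 0.586 and 0.720 ± 0.316, n = 5 each), and in CD150neg MPP 14.9 (0.0746 ± 0.127, n = 5, and 1.11 ± 0.374, n = 4). Mean Evc2 differed by a ratio of 1.31 in CD150hi HSC (2.31 ± 0.488 and 3.02 ± 0.631, n = 5 each), 5.50 in CD150lo HSC (0.245 ± 0.230 and 1.35 ± 0.385, n = 5 each) and 34.1 in CD150neg MPP (0.0165 ± 0.0181, n = 5, and 0.562 ± 0.348, n = 4). The fragments summed over each group gave ratios per sequenced fragment of 18.6 for Evc (95% interval 14.5 to 24.2, exact binomial) and 36.9 for Evc2 (21.3 to 69.9) in CD150neg MPP, and these intervals cover counting error only. Leaving out WT mouse 1 moved the Evc ratio of quantile-normalized FPKM from 1.75 to 5.90 in CD150lo HSC and from 10.6 to 79.0 in CD150neg MPP, and the Evc2 ratio in CD150neg MPP from 11.5 to 43.6. In each of these the 5A3+/del mean stayed the higher. Evc2 of WT mouse 1 in CD150neg MPP was 0.194 after quantile normalization. As deposited it was 0.0322 FPKM (4 fragments), below the 0.0388 of WT mouse 5, so this mouse was not the highest before normalization. Ratios over WT means this close to 0 are large, and as differences of mean log2(FPKM + 1) after normalization, the scale used for the other genes, Evc differed by 0.69, 0.34 and 0.91 from CD150hi HSC to CD150neg MPP, whereas Evc2 differed by 0.30, 0.92 and 0.56 and so by most in CD150lo HSC. For comparison, of the 15409 genes that passed the filter (at least 1 FPKM in at least 4 libraries), 0.759% were higher in 5A3+/del mice with no overlap between CD150hi HSC libraries, 0.688% between those of CD150lo HSC and 0.545% between those of CD150neg MPP. Because Evc and Evc2 were chosen for this contrast, nothing is read from that comparison.

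Along the populations, Evc2 stepped down in both genotypes, and in WT mice the steps were steeper. In WT mice its mean in CD150lo HSC was 10.6% of that in CD150hi HSC, and the mean in CD150neg MPP 6.73% of that in CD150lo HSC. In 5A3+/del mice these values were 44.7% and 41.6%. The value was lower in the later population in every mouse for each step (5 of 5 WT mice for both, then 5 of 5 and 4 of 4 5A3+/del mice), and the groups overlapped in 1 of the 4 steps, from 5A3+/del CD150lo HSC to CD150neg MPP. Evc in WT mice was also lower in the later populations, at 42.7% (lower in 4 of 5 mice) and then 8.31% (5 of 5 mice) of the CD150hi HSC mean. In 5A3+/del mice the CD150lo HSC mean of Evc was 34.4% and its CD150neg MPP mean 53.1% of that in CD150hi HSC, and 3 of 4 mice were higher in CD150neg MPP than in their own CD150lo HSC. Among all genes kept, 2.06% were higher in CD150hi than in CD150lo HSC of WT mice with no overlap, 0.707% were so in CD150lo HSC against CD150neg MPP and 4.19% in CD150hi HSC against CD150neg MPP. In 5A3+/del mice these shares were 2.10%, 0.740% and 3.40%, and nothing is read from them, because the gradient of the pair was among the reasons for its choice. In bulk samples such as these, fewer cells that express a gene and less RNA of it per cell cannot be told apart.

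Ordered by mean FPKM, Evc2 was highest in 5A3+/del CD150hi HSC, then WT CD150hi HSC, 5A3+/del CD150lo HSC, 5A3+/del CD150neg MPP, WT CD150lo HSC and WT CD150neg MPP. Neighbours in this order overlapped in their libraries except the last pair, where the lowest WT CD150lo HSC value (0.0484) was above the highest WT CD150neg MPP value (0.0388). For Evc the order was 5A3+/del CD150hi HSC, 5A3+/del CD150neg MPP, WT CD150hi HSC, 5A3+/del CD150lo HSC, WT CD150lo HSC and WT CD150neg MPP. Here the top group alone was clear of its neighbour (lowest 1.72 against highest 1.60), and all other neighbours overlapped.

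Defining transcripts of other cells were looked at beside the pair. Of the 12 markers of stroma, bone and cartilage, Runx2 took most of the summed level at 26.4 to 77.5 FPKM. In CD150hi HSC the sum of the list was 29.4 to 33.7 FPKM for WT mice and 36.4 to 42.8 for 5A3+/del mice, without overlap, as for Evc. It was higher in CD150neg MPP (54.8 to 69.9 for WT mice, 60.2 to 81.9 for 5A3+/del mice), where Evc and Evc2 were lower. Of the 12 genes, 10 had a median over all libraries under 1 FPKM. Among them the cartilage gene Acan and the bone gene Bglap were at 0 in 25 libraries each, Sp7 was at 0 in 16, and Col2a1 reached 0.169 and Col1a1 0.809 FPKM. Others of the list were higher or moved with the populations. Col1a2 had medians of 0.498, 0.281 and 0.116 FPKM from WT CD150hi HSC to CD150neg MPP and 0.554, 0.0859 and 0.122 in 5A3+/del mice, with its highest values in CD150hi HSC like Evc and Evc2. Pdgfrb was at 1 FPKM or more in 23 libraries and was highest in CD150neg MPP (medians 3.74 and 3.67), and Sparc reached 2.96 FPKM in 5A3+/del CD150lo HSC and was at 0 in all 5 5A3+/del CD150hi HSC libraries. The 4 endothelial markers summed to 14.9 to 29.6 FPKM over all libraries, mostly Pecam1 (8.04 or more) and Tek, with Cdh5 at most 1.49. Tek, which stem cells also express, followed the populations in WT mice with medians of 10.6, 5.76 and 3.09 FPKM, and the median of Cdh5 in CD150neg MPP was 0.122 for WT and 0.788 for 5A3+/del mice, with overlap. Granulocyte markers varied most, with sums of 58.9 to 916.7 FPKM in WT CD150hi HSC, 14.5 to 121.7 in 5A3+/del CD150hi HSC and 5.17 to 1376 over all libraries, led by S100a8 (up to 737.5). B cell and T cell markers summed to at most 3.39 and 1.09 FPKM (Cd79a at most 2.85 and Cd3e at most 1.05), the erythroid markers to 6.11 to 14.7, mostly Tfrc, and the megakaryocyte markers to 21.0 to 55.0, mostly Pf4. Of the erythroid markers, Hba-a1 in CD150lo HSC was at 0 to 1.13 FPKM in WT mice against 1.29 to 2.16 in 5A3+/del mice, without overlap, as for Evc2 in that population. The part of these cells in the values of Evc and Evc2 was not tested.

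Across mice, a shared variation of the pair beyond the group means was not detectable, and with 10 mice a moderate correlation could have been missed. With the mean of each genotype and population removed and the libraries of a mouse averaged, Pearson's r between Evc and Evc2 was 0.252 over 10 mice (p = 0.499, permutation test, two-sided) and Spearman's rho was -0.03 (p = 0.946, permutation test). Without the 2 mice farthest from the median of Evc, r was -0.03 (p = 0.943, permutation test). In WT CD150neg MPP of mice 2 and 3 both genes had 0 fragments. Normalization gave them the same values there, 0.0197 and 0.0115, so these libraries say nothing about shared variation. Over all 29 libraries the gene most alike to Evc2 was Fgd5, a guanine nucleotide exchange factor gene that marks stem cells (r = 0.888 on log2(FPKM + 1)), followed by Plxdc2 (0.886) and Trim47 (0.882). Fgd5 had 15.5 to 23.0 FPKM in WT CD150hi HSC and 8.74 to 13.5 in WT CD150lo HSC. These groups did not overlap, as for 2.06% of all genes kept in this direction. Fgd5 was picked for its likeness to Evc2 over these same libraries, so nothing is read from this. Most alike to Evc were Gimap4 (0.808), H2-Aa (0.801) and Tie1 (0.787), and Evc2 was the 12th gene (0.73) when Evc itself is counted. With Evc2, r was 0.08 for Ptch1, -0.35 for Smo and 0.25 for Sufu, and with Evc it was -0.10, -0.31 and 0.50. The 29 libraries come from 10 mice and share the difference between populations, so these values describe likeness of pattern and carry no p.

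The genes near the pair were compared between genotypes in the same way as the hedgehog genes. The nearest protein-coding genes are Crmp1, which overlaps the far end of Evc by 3035 bp on the opposite strand, and Stk32b, 21772 bp beyond Evc2. Crmp1 was at most 0.427 FPKM and Stk32b at most 0.118, below the filter. The sources do not state whether reads were counted by strand, so reads in the 3035 bp shared with Crmp1 cannot be assigned to Evc with certainty, and the same holds for the pseudogene Gm15732 inside Evc2. Of 13 genes within 500 kb, 5 passed the filter (Mrfap1, Man2b2, Wfs1, Jakmip1 and Gm15732), and 0 of the 5 had an adjusted p under 0.05 in any population by limma. Of all genes, the share that did was 0.156% for CD150hi HSC, 0.0324% for CD150lo HSC and 0.0454% for CD150neg MPP. With 5 genes and shares this small, nothing is read from the absence of calls. The largest difference was that of Wfs1 in CD150hi HSC, with a log2 fold change of 0.75 (SE 0.29, limma adjusted p = 0.250). On the same scale Evc differed by 0.69 in that population. Gm15732 differed by 0.60 (SE 0.36) in CD150neg MPP, where Evc2 differed by 0.56. In CD150lo HSC it differed by -0.14 (SE 0.34), where Evc2 differed by 0.92.

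Ptch1, Smo and Sufu were expressed in all 29 libraries at levels per length well above Evc and Evc2, and none of the 3 differed between genotypes or populations in the limma test. Ptch1, the hedgehog receptor, had 8.69, 12.3, 12.2, 9.34 and 9.68 FPKM in WT CD150hi HSC and 7.71, 8.89, 7.68, 9.42 and 5.88 in 5A3+/del CD150hi HSC. The groups overlapped between 8.69 and 9.42. The log2 fold change of 5A3+/del against WT was -0.35 (SE 0.15, 95% interval -0.66 to -0.03), lower in 5A3+/del mice and opposite to Evc, and its limma adjusted p over all genes was 0.333. In CD150lo HSC it was 0.11 (SE 0.15, -0.20 to 0.43) and in CD150neg MPP -0.03 (SE 0.16, -0.37 to 0.30). The difference between the CD150lo and CD150hi HSC effects of Ptch1 was 0.46 on the log2 scale (SE 0.22) and did not pass the limma test, as 0.00% of all genes did (614 at an unadjusted p under 0.05). Group means of Ptch1 ran from 7.88 ± 2.49 FPKM in WT CD150lo HSC to 10.4 ± 1.67 in WT CD150hi HSC (SD, n = 5 each), and the population differences were -0.13, 0.07 and -0.06 on the log2 scale for CD150lo against CD150hi HSC, CD150neg MPP against CD150lo HSC and CD150neg MPP against CD150hi HSC. These are means over the genotypes. In WT mice the CD150lo HSC mean of Ptch1 was 75.5% of the CD150hi HSC mean and lower in 5 of 5 mice, the direction of Evc2, whereas in 5A3+/del mice it was 106.3% and lower in 1 of 5, and this difference between genotypes is the one of 0.46 that did not pass.

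Smo, the signal transducer to which the EvC complex binds, had 8.61 to 16.8 FPKM in the 10 CD150hi HSC libraries. The means of WT and 5A3+/del mice were 14.2 ± 2.98 and 12.2 ± 2.91 for CD150hi HSC, 14.4 ± 2.72 and 15.4 ± 3.13 for CD150lo HSC (SD, n = 5 each), and 17.5 ± 5.05 (n = 5) and 16.6 ± 2.65 (n = 4) for CD150neg MPP. The means thus stepped up from CD150hi HSC to CD150neg MPP, opposite to Evc2, with a log2 difference between these 2 populations of 0.31 (SE 0.13, 95% interval 0.04 to 0.58). This difference did not pass the test (limma adjusted p = 0.128), and Smo was higher in CD150neg MPP in 3 of 5 WT and 4 of 4 5A3+/del mice. Genotype differences of Smo were -0.19 (SE 0.18), 0.07 (SE 0.18) and -0.03 (SE 0.19) on the log2 scale, in the order CD150hi HSC, CD150lo HSC, CD150neg MPP, with limma adjusted p of at least 0.699. Sufu, the inhibitor of the Gli factors, had group means between 8.44 ± 1.98 FPKM in 5A3+/del CD150lo HSC and 10.4 ± 2.82 in WT CD150hi HSC (SD, n = 5 each). Its genotype differences were -0.05, -0.18 and 0.17 (SE 0.20, 0.20 and 0.21), and CD150neg MPP differed from CD150hi HSC by -0.18 (SE 0.14, 95% interval -0.48 to 0.11, limma adjusted p = 0.477). Thus 0 of these 3 genes was called in any of the 3 genotype contrasts, against the shares of all genes given for the neighbours, or in any population contrast, against 7.64% of all genes for CD150lo against CD150hi HSC, 0.292% for CD150neg MPP against CD150lo HSC and 13.2% for CD150neg MPP against CD150hi HSC. The farthest bound of these 18 intervals was the -0.66 of Ptch1 in CD150hi HSC, so that larger log2 differences lie outside all of them.

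**Figure D3:**
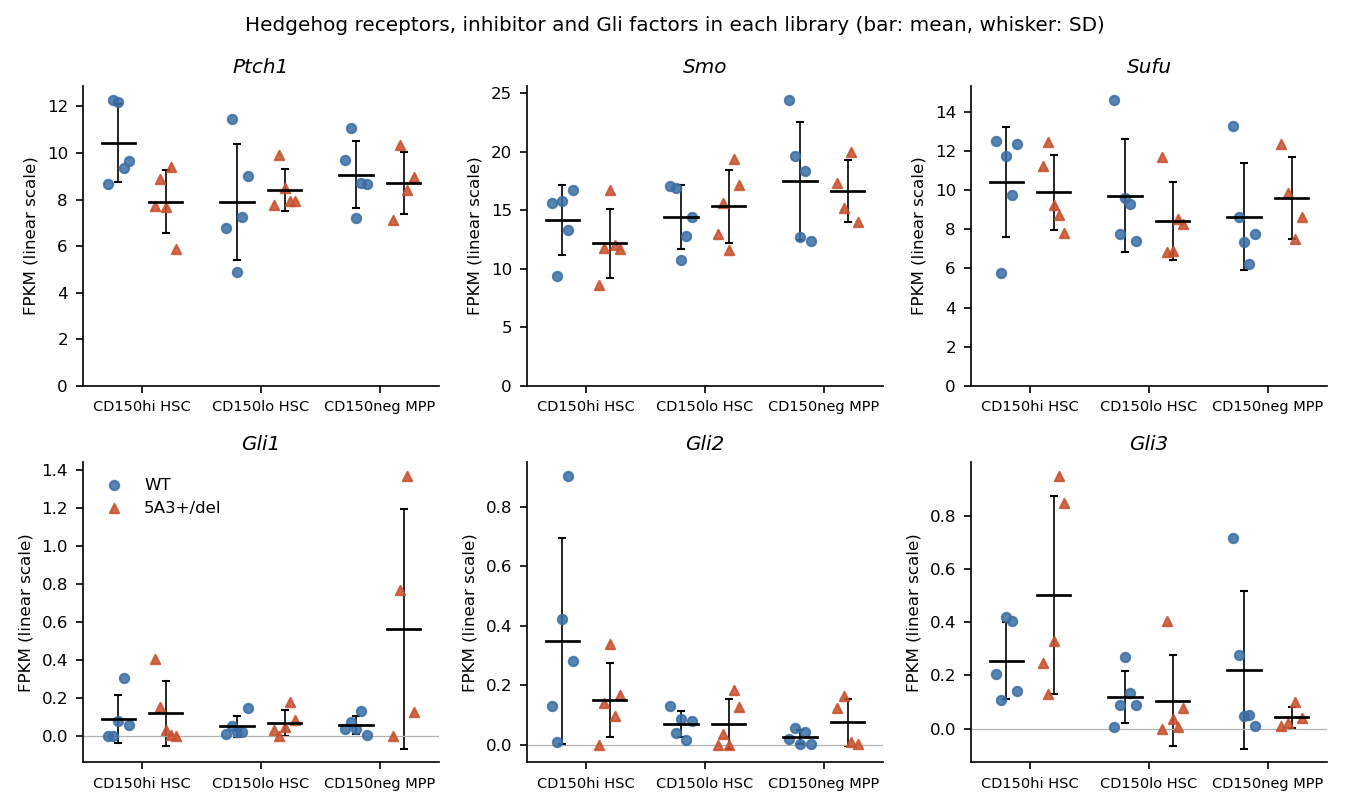
FPKM of the 6 hedgehog genes (y axes, linear, each with its own range) in each of the 29 libraries by population, with WT as blue circles, 5A3+/del as red triangles, bars for the mean and whiskers for the SD. Ptch1, Smo and Sufu lie between 4.88 and 24.4 FPKM in all groups, whereas the Gli genes stay below 1 FPKM in all libraries except 1 of Gli1 in 5A3+/del CD150neg MPP (1.37).

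**Figure D4:**
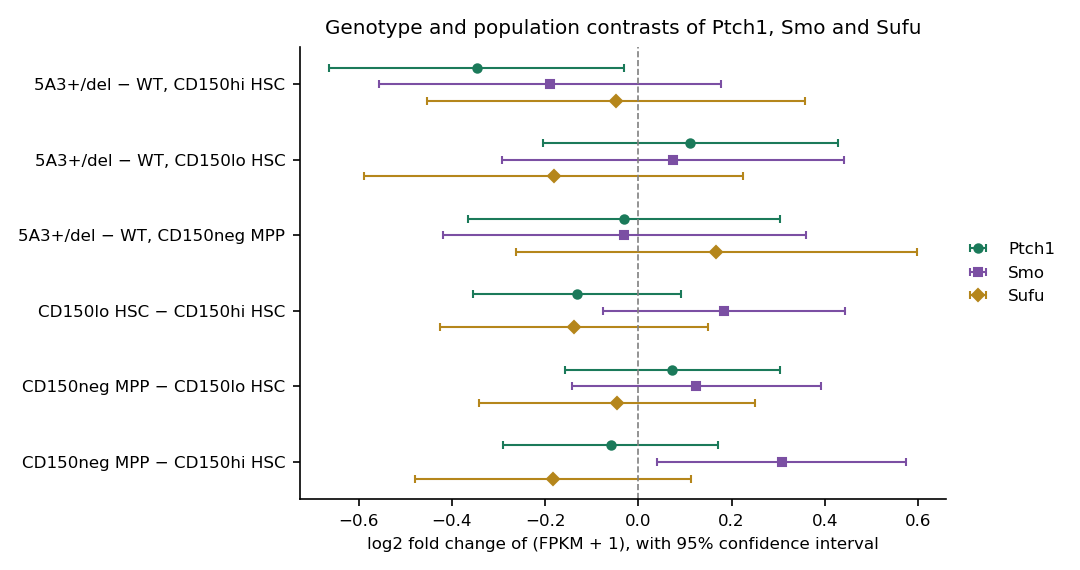
Log2 fold changes of Ptch1, Smo and Sufu on log2(FPKM + 1) (x axis) in the 3 genotype and 3 population contrasts (y axis), with 95% confidence intervals from the limma fit before adjustment over genes. 2 of the 18 intervals exclude 0, Ptch1 in CD150hi HSC (-0.66 to -0.03) and Smo in CD150neg MPP against CD150hi HSC (0.04 to 0.58), and neither passed after adjustment.

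The 3 Gli transcription factors were below the filter. Gli1, an activator and itself a target of the pathway, reached 1 FPKM in 1 of 29 libraries, and Gli2 and Gli3 in none. Outside 5A3+/del CD150neg MPP, Gli1 had at most 41 fragments in any library. In the 4 libraries of that group it had 0, 75, 137 and 15 fragments (0, 0.768, 1.37 and 0.126 FPKM), against 3, 9, 5, 15 and 1 in WT CD150neg MPP. Of the 5A3+/del mice, 2 were thus above all WT mice and 1 was at 0, and the difference of 0.48 in mean log2(FPKM + 1) had an exact permutation p of 0.0873 (n = 4 and 5, two-sided, the smallest possible being 0.00794). Without 5A3+/del mouse 1, the one at 0, the exact permutation p was 0.0357. Leaving out the mouse that runs against a difference lowers p by construction, so nothing is read from this value. No other left-out mouse gave a genotype test of a Gli gene with p under 0.05. The other 8 genotype tests of Gli1, Gli2 and Gli3 gave exact permutation p of 0.262 or more.

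Gli3, which acts mainly as a repressor, was lower in CD150lo than in CD150hi HSC. It had 50, 32, 109, 106 and 43 fragments in WT CD150hi HSC, 2, 24, 65, 34 and 23 in WT CD150lo HSC, 63, 32, 84, 281 and 275 in 5A3+/del CD150hi HSC and 0, 102, 8, 1 and 21 in 5A3+/del CD150lo HSC. Gli3 was lower in CD150lo HSC in 9 of 10 mice, with a mean difference of -0.29 on the log2(FPKM + 1) scale (exact sign-flip permutation p = 0.0234 over mice, two-sided). This was 1 of 18 exact tests on the Gli genes with p under 0.05, and the exact permutation p ranged from 0.00391 to 0.0469 with each mouse left out. When all 30025 genes were fitted without the filter, the same difference had a limma adjusted p of 0.0788, so it does not pass over all genes. Gli2, the main activator, had 335 fragments in total over the WT CD150hi HSC libraries, of which 170 came from mouse 4 (165 without it), 76 over CD150lo HSC and 26 over CD150neg MPP. In 5A3+/del mice the sums were 147, 64 and 53, the last over 4 libraries, where the mean FPKM was 107.9% of that in CD150lo HSC. Its differences from CD150hi HSC were -0.20 (exact permutation p = 0.0508) in CD150lo HSC and -0.24 (exact permutation p = 0.0625) in CD150neg MPP. Without 5A3+/del mouse 4 the first of these had an exact permutation p of 0.0234, and without WT mouse 2 of 0.0391. Without 5A3+/del mouse 1 the other had an exact permutation p of 0.0312, and without WT mouse 1 the Gli3 difference between CD150neg MPP and CD150hi HSC had the same exact permutation p of 0.0312 against 0.145 with all mice. These values are given because they fell under 0.05. The other left-out mice gave 0.05 or more for these 3 differences, so nothing is read from them. Gli1 had 47 fragments over the WT CD150hi HSC libraries, of which 32 came from mouse 4 (15 without it), 27 over CD150lo HSC and 33 over CD150neg MPP. In 5A3+/del mice these sums were 60, 33 and 227, and without mouse 1 in CD150hi HSC and mouse 3 in CD150neg MPP, the highest of each, 19 and 90. No order of the populations can be read for Gli1 from these counts.

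Beyond the members, 72 other hedgehog and cilium genes were listed by role, of which 70 were in the table and 55 passed the filter. The ligands were low throughout, as was the inhibitor Hhip. Shh was at most 0.0807 FPKM, Ihh at most 0.352 and at 0 in 23 libraries, Dhh at most 0.995, and the ligand-binding inhibitor Hhip at most 0.230 and at 0 in 23 libraries. The partners of the EvC complex that anchor it at the cilium base were measured in every library, Iqce at 1.66 to 5.77 FPKM and Efcab7 at 2.15 to 10.4 FPKM. Iqce means lay between 2.52 ± 0.494 and 3.32 ± 0.847 and Efcab7 means between 4.16 ± 1.06 and 5.96 ± 2.67 (SD, n = 5 each), and neither passed the test in any contrast.

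With genotype, 0 of the 55 pathway genes passed the limma test in any population. In CD150hi HSC 20% of them had an unadjusted p under 0.05 (11 genes, smallest adjusted p 0.136), against 13.1% of all genes, and their median log2 fold change was 0.15 against 0.004 over all genes. In CD150lo HSC and CD150neg MPP the shares with an unadjusted p under 0.05 were 5.45% (3 genes) and 3.64% (2 genes), against 6.87% and 4.27% of all genes, and the medians were 0.06 and -0.02. Between populations, 5 of the 55 (9.09%, against 7.64% of all genes) differed between CD150lo and CD150hi HSC, and all 5 were lower in CD150lo HSC. Between CD150neg MPP and CD150lo HSC 0 of 55 differed. Between CD150neg MPP and CD150hi HSC 9 of 55 (16.4%, against 13.2% of all genes) differed, with 6 lower and 3 higher in CD150neg MPP. These counts include Bmp4, which passed the filter only through CD150hi HSC (at least 1 FPKM in 9 of those libraries and 0 of the others), so that its difference from CD150hi HSC was fixed by the filter. Without it and Cdon, which passed in the same way and was not called, 4 of 53 (7.55%) and 8 of 53 (15.1%) differed. The shares called between populations are close to those of all genes. For genotype in CD150hi HSC, the share with an unadjusted p under 0.05 was above that of all genes. There 34 of the 55 were fitted higher in 5A3+/del mice, against 33 in CD150lo HSC and 26 in CD150neg MPP. Whether the list as a whole differs from all genes was not tested.

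The genes called between populations were common targets, a co-receptor, a scaffold and cilium genes, and Ccnd1 and Jag2, common targets that also passed the filter, were not called. Bmp4, a secreted growth factor, is given as a description. It had 1.85 to 5.73 FPKM in WT CD150hi HSC, a mean of 0.0929 in WT CD150lo HSC and at most 0.204 in WT CD150neg MPP. The CD150hi HSC group did not overlap with either. In 5A3+/del mice Bmp4 had 0.946 to 3.12 FPKM in CD150hi HSC and at most 0.467 and 0.391 in the later populations. Mycn, a transcription factor of the Myc family, fell from 52.1 ± 12.1 FPKM in WT CD150hi HSC to 31.1 ± 8.26 and 23.2 ± 2.24 (SD, n = 5 each) in CD150lo HSC and CD150neg MPP. In 5A3+/del mice its means were 43.55, 20.5 and 18.4 FPKM. As means over both genotypes, like those of the genes below, its log2 fold changes were -0.90 and -1.21 (limma adjusted p = 1.24e-05 and 8.15e-08). Ccnd2, a D-type cyclin, fell by 0.36 and 0.43 on the log2 scale (limma adjusted p = 0.0012 and 0.00011). Boc, a co-receptor that binds hedgehog ligands, fell by 0.88 in both (limma adjusted p = 0.0165 and 0.0132), and the ciliary trafficking gene Tulp3 fell by 0.49 and 0.74 (limma adjusted p = 0.0121 and 0.000151). Bcl2, which protects from apoptosis, was called in CD150neg MPP against CD150hi HSC, where it fell by 0.51 (SE 0.14, limma adjusted p = 0.016). In CD150lo HSC its log2 difference was -0.32 (limma adjusted p = 0.205). The 3 genes that rose in CD150neg MPP were Cep164, a protein of the centriole that gives rise to the cilium (log2 fold change 0.58), the scaffold Arrb2 (0.51) and the intraflagellar transport gene Ift88 (0.38), with limma adjusted p of 0.00169, 0.0119 and 0.0372. Since the CD150hi HSC libraries enter both comparisons, the overlap of their calls is not read as a result.

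**Figure D5:**
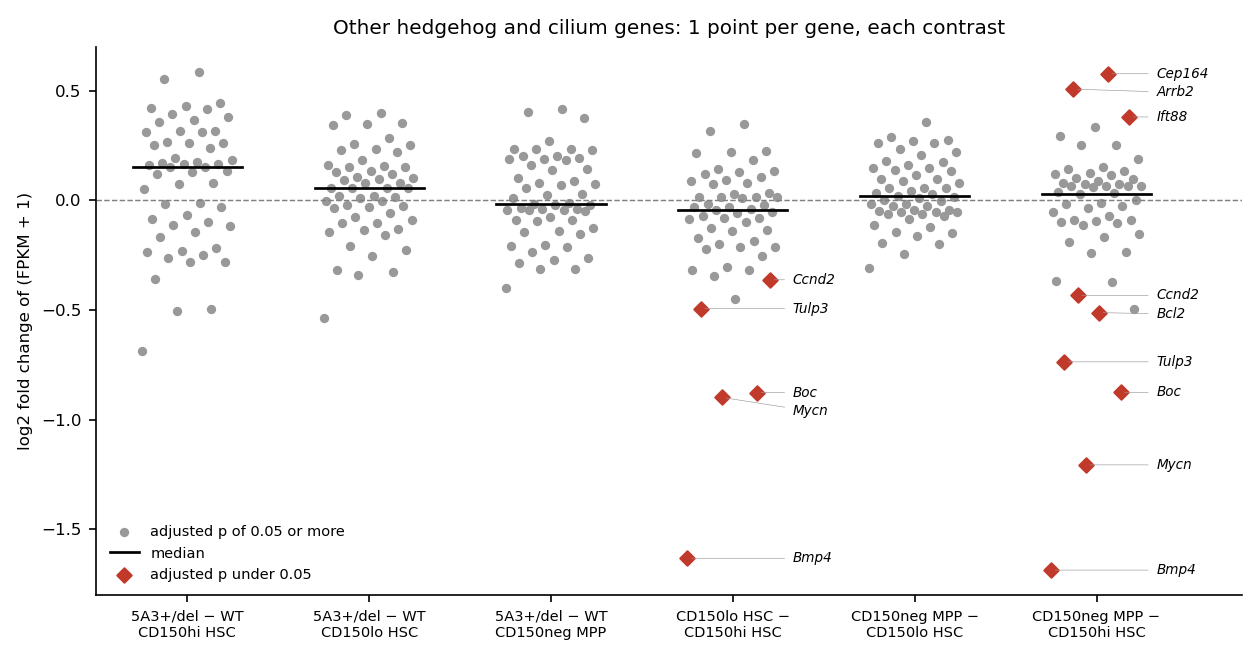
Log2 fold changes on log2(FPKM + 1) (y axis) of the 55 other hedgehog and cilium genes in 3 genotype and 3 population contrasts (x axis), with 1 point per gene, a black line at the median and red diamonds for adjusted p under 0.05. No genotype contrast holds a red point, and where CD150hi HSC are the reference Bmp4 (-1.63 and -1.69), which passed the filter only through those libraries, and Mycn (-0.90 and -1.21) lie lowest.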

How the data were processed

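RNA of sorted cells was amplified (NuGen Ovation V2), made into TruSeq libraries and sequenced as paired reads, which the authors mapped to mm9 with their own pipeline. The submitters' processing notes name Bowtie 0.12.2 and HTSeq. The authors deposited 1 table of FPKM values per gene, normalized to exon length and mapped fragments and not further. Groups follow the labelled genotype and sorted population, and a mouse code ties the populations of a mouse together.

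The members and gene lists were chosen with earlier results of these data known. FPKM multiplied by exon length (GENCODE, mm9) came in steps that gave fragments per library. Of the low values (up to 100 fragments), 98.27% to 98.73% per library were whole within 0.05 fragments. Intervals and the floor of 3 fragments cover counting error only, since no molecular identifiers were used and copies made by amplification are not separate molecules. Genes with at least 1 FPKM in at least 4 of 29 libraries (15409) were transformed as log2(FPKM + 1) and quantile normalized. A pseudocount of 1 understates fold changes of low genes. limma 3.58.1 (R 4.3.3) was fitted to 6 group means over all libraries with Benjamini-Hochberg adjustment over all genes kept and a threshold of 0.05. Population contrasts are means over both genotypes. Ratios of Evc and Evc2 are given on deposited FPKM unless stated as normalized, and have no test. Gli1, Gli2 and Gli3, below the filter, had exact two-sided permutation tests over mice (Python 3.11.15), with sign flips of within-mouse differences for populations. The planned adjustment over these 18 tests alone is not given, and values from a limma fit of all genes stand in its place. Code was tested on simulated data. Named genes were all members, pathway genes with adjusted p under 0.05 and up to 10 per contrast, Shh, Ihh, Dhh, Hhip, Iqce and Efcab7, the nearest coding neighbours, the 3 genes most alike to Evc2 and to Evc, identity markers and the most abundant marker of each other cell type. Wfs1, Jakmip1, Man2b2, Mrfap1, Gm15732, Cdon, Ccnd1, Jag2, Hba-a1 and the other stromal and endothelial markers were named after their values were seen. Some genes of the lists are not reported here. Promoter sequences came from RefSeq (GRCm38.p6), with 7 of 8 members matched, and no protein sequences were used here.

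The mouse code pairs populations by design. Deviations from group means of the same mouse correlated at -0.04 to 0.23 over 28 pairs of libraries (median 0.08, 10 over 0.1). Replicate numbers shared by WT and 5A3+/del mice name different animals (14 pairs, -0.03 to 0.08, 0 over 0.1). The settings varied were the pseudocount, the filter, the normalization, blocks for mouse and replicate number, a variance trend, age, fits to the compared groups only, and leaving out each mouse.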

Additional observations from a re-analysis of the deposited data

Results flagged for a closer look

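Within groups of 4 or 5 libraries, 4 of 48 member and group combinations held 1 library far from the rest by Dixon's criterion, where chance gives about 1 in 20 (2.4). Evc in WT CD150lo HSC of mouse 1 was 1.43 FPKM, against 0.053 to 0.192 in the other 4 mice. Evc in WT CD150neg MPP of the same mouse was 0.300 FPKM, against 0 to 0.0437. Gli1 in WT CD150hi HSC of mouse 4 was 0.309 FPKM, against 0 to 0.0777. Gli3 in 5A3+/del CD150lo HSC of mouse 2 was 0.404 FPKM, against 0 to 0.0762.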

How the results depend on the processing

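Of 760 values recomputed for 41 results under the alternatives, 738 kept their direction, their side of the threshold or their size, 10 moved and 12 reversed sign. All 12 were small log2 fold changes that passed no test. Without normalization Sufu in CD150neg MPP against CD150lo HSC was 0.0073 in place of -0.04. The others came from leaving out 1 mouse, with ranges between genotypes of -0.22 to 0.0380 for Sufu in CD150hi HSC, -0.00094 to 0.16 for Smo in CD150lo HSC, and -0.11 to 0.0811 for Ptch1 and -0.13 to 0.0717 for Smo in CD150neg MPP. Ptch1, Smo and Sufu stayed at 0 calls throughout. For Evc2 in CD150neg MPP the normalized ratio of 11.5 was 34.1 on deposited FPKM and 35.4 with upper quartile scaling. Quantile normalization set Evc2 of WT mouse 1 in this population to 0.194, from 0.0322 FPKM as deposited. Leaving out 1 mouse gave normalized ratios of 1.40 to 5.90 for Evc in CD150lo HSC, 8.68 to 79.0 for Evc and 9.17 to 43.6 for Evc2 in CD150neg MPP, all highest without WT mouse 1. Exact tests of the Gli genes with p under 0.05 numbered 0 to 1 for genotype and 1 to 2 for population with 1 mouse left out. With the mouse as a replicate block, 10 pathway genes in place of 9 differed between CD150neg MPP and CD150hi HSC (all 9 and Ift52), 5 between CD150lo and CD150hi HSC, and no call was lost. With the replicate number as a replicate block there were also 10 and 5.

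The counts of all genes called between genotypes depended strongly on the fit. In CD150hi HSC, 24 genes became 15 with a pseudocount of 0.1, 13 with upper quartile scaling, 75 without a filter, 50 with the lower filter (0.1 FPKM), 56 with the mouse block, 16 with the number block, 100 with a variance trend and 0 with the compared groups alone (1277 at an unadjusted p under 0.05). Without 1 mouse there were 4 (without WT mouse 4) to 40 (without WT mouse 5). In CD150lo HSC, 5 became 16 without a filter, 10 with the lower filter, 8 with a pseudocount of 0.1 or either block, 31 with the trend, 0 with the compared groups alone, and 3 to 77 without 1 mouse (77 without WT mouse 5). In CD150neg MPP, 7 became 4 without a filter or with the number block, 0 with the compared groups alone and 3 to 8 without 1 mouse. Between CD150neg MPP and CD150lo HSC, 45 became 68 with the mouse block and 16 to 45 without 1 mouse. The median log2 fold change of all genes never exceeded 0.044 in size. Values of Gli1, Gli2, Gli3 and of Evc2 in WT CD150neg MPP rest on few fragments and limit what can be detected.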
